A study of Bos taurus with 10 samples.

Results

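The nuclear genes for the subunits of the mitochondrial respiratory chain and ATP synthase were described in bovine embryos by the complex each subunit belongs to. Members were taken by gene name alone from the array's annotation: names of complex I (NDUFA, NDUFB, NDUFC, NDUFS and NDUFV followed by a number), complex II (SDHA to SDHD), complex III (UQCR genes and CYC1), complex IV (COX4 to COX8 subunits) and complex V (ATP5 genes), with probes placed on the mitochondrial chromosome left out. The rule gave 83 genes of the 25325 names on the array, carried by 203 probes: 38 genes of complex I, 4 of complex II, 9 of complex III, 16 of complex IV and 16 of complex V. Since names chose them, 3 members are grouped by name although they are known for other roles: NDUFA4 as a subunit of complex IV, COX7A2L as a factor that joins complexes into supercomplexes, and ATP5S as a coupling factor. The array uses older names; all 83 matched a current RefSeq gene and 16 have another symbol there, among them ATP5A1 (now ATP5F1A), ATP5B (ATP5F1B), ATP5C1 (ATP5F1C), ATP5O (ATP5PO), ATP5J (ATP5PF), ATP5H (ATP5PD), ATP5G2 (ATP5MC2) and ATP5S (DMAC2L).

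Cows were superovulated, inseminated 108 and 120 h into that treatment, and flushed 7 days after the first insemination, and the embryos' total RNA, carrying the dye Cy3, was read on Agilent bovine arrays of 1 colour. The vehicle group (2 arrays) came from cows given DMSO, for which the labels state no infusion time or length. The other groups came from cows infused intravenously for 2 h, beginning 48 h into superovulation, with senktide, a peptide that activates the receptor of neurokinin B, at 30 nmol/min (4 arrays) or 300 nmol/min (4 arrays). The study's question was the effect of infusion on embryo quality and developmental stage. Senktide went to the cow and not to the embryo, and each group shares the superovulation. Whether the RNAs of a group derive from different cows, and from how many embryos, is not given in the labels; p-values therefore reflect the scatter of these samples alone, which may be technical. The extraction text names endometrium where every other label names embryos.

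Oxidative phosphorylation passes electrons from NADH through complex I, or from succinate through complex II, to coenzyme Q, on through complex III and cytochrome c to complex IV, which reduces oxygen. The proton gradient that complexes I, III and IV build drives ATP synthase, complex V. All complexes except II also hold subunits encoded in mitochondrial DNA, so nuclear and mitochondrial genes must both be expressed. Several complex IV subunits exist as a widely expressed form and a form known from particular tissues: COX6A2, COX7A1 and COX8B from heart and skeletal muscle, COX4I2 from lung and COX6B2 from testis. In the cleaving embryo the mitochondria are inherited from the oocyte and are structurally immature, and oxidative metabolism increases as the blastocyst forms.

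Members are represented by 60-base probes, and 65 of the 83 genes have 2 or more. The first 30 bases are printed 5′ to 3′ as deposited with the array, for the probes on which the results turn. Coordinates and strands follow the array annotation (build Btau_3.1). The first set shows pairs of probes of 1 gene. Those of COX8A and ATP5H share most of their bases and are used further on to compare spots of 1 gene. Capitals mark bases shared with the other probe of the pair, on the same strand for COX8A and ATP5H and as the reverse complement for COX4I2.
COX8A, probe A_73_107151, chr29:44086962-44087021 (+): TTTATAAGGCCCTGCTCAGTAGGGCCTCCC
COX8A, probe A_73_P061491, chr29:44086961-44087020 (+): gTTTATAAGGCCCTGCTCAGTAGGGCCTCC
ATP5H, probe A_73_P435821, chr19:58019534-58019593 (+): aattgagaccttataagctcgAGTCCAGGA
ATP5H, probe A_73_P043666, chr19:58019555-58019614 (+): AGTCCAGGAGACAGCTCTGGCCCTGGAATT
COX4I2, probe A_73_P135556, chr13:62060124-62060183 (−): AAATCAGCAGacctgtgaatccacagaaga
COX4I2, probe A_73_107705, chr13:62060174-62061484 (+): CTGCTGATTTggtggcagcgggtctatgtg
The COX8A probes are offset by 1 base and share 59 of 60 bases, those of ATP5H share 39, and those of COX4I2 lie on opposite strands and share 10.

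The second set shows how far probes for the widely expressed and the muscle form of a complex IV subunit differ. The longest run of bases in common was 5 for the COX6A1 and COX6A2 probes and 7 for the COX7A2 and COX7A1 probes, and their printed parts are in lower case throughout.
COX6A1, probe A_73_P047816, chr17:66018893-66018952 (+): gatcttccatccctttgcttatagcaggaa
COX6A2, probe A_73_108371, chr25:29304624-29304683 (−): tcaaccctctgcccacgggctacgaaaagc
COX7A2, probe A_73_121292, chr9:14624803-14624862 (−): tgagttctttggggatcaatatttattgac
COX7A1, probe A_73_P067431, chr18:46231312-46231371 (−): aagaagtgaaaccaagaagtctgcaggacc

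The third set holds the probes of COX5A, NDUFS5, NDUFC1 and NDUFB10, members whose values by array are described below. For COX5A and NDUFS5 bases 31 to 60 are printed, where AATAAA, the usual signal for cleavage and polyadenylation of a transcript, stands in capitals. The NDUFC1 and NDUFB10 probes do not hold these letters in the part shown.
COX5A, probe A_73_108175, chr21:33846139-33846198 (+): tgtaatgtaacttggactttAATAAAaggg
NDUFS5, probe A_73_104630, chr3:114020794-114020853 (−): agagtgtctaaaAATAAAggattgctccat
NDUFC1, probe A_73_114968, chr17:19687556-19687615 (+): acgtgagagaaagaattacgtgtgaatata
NDUFB10, probe A_73_102800, chr25:2002080-2002139 (+): agaaaagccgccaaagaggctgctgctgcc

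Most members were detected on every array. By its brightest probe, 64 of the 83 genes (77.1%) were well above background, the scanner software's flag for a spot clearly brighter than its surroundings, on all 10 arrays, against 5.71% of all 43653 probes and 7.32% of all names taken by their brightest probe. Complex III was complete, with 9 of 9 genes on all 10 arrays, complex V had 14 of 16, complex II 3 of 4, complex I 27 of 38 and complex IV 11 of 16. Another 15 genes were detected on 2 to 9 arrays, SDHB on 1, and COX6A2, COX7A1 and NDUFA4L2 on none. The heat map of the members shows that the crosses lie in the muscle, lung and testis forms, in 11 complex I genes, in SDHB and in ATP5D and ATP5S.

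**Figure D1:**
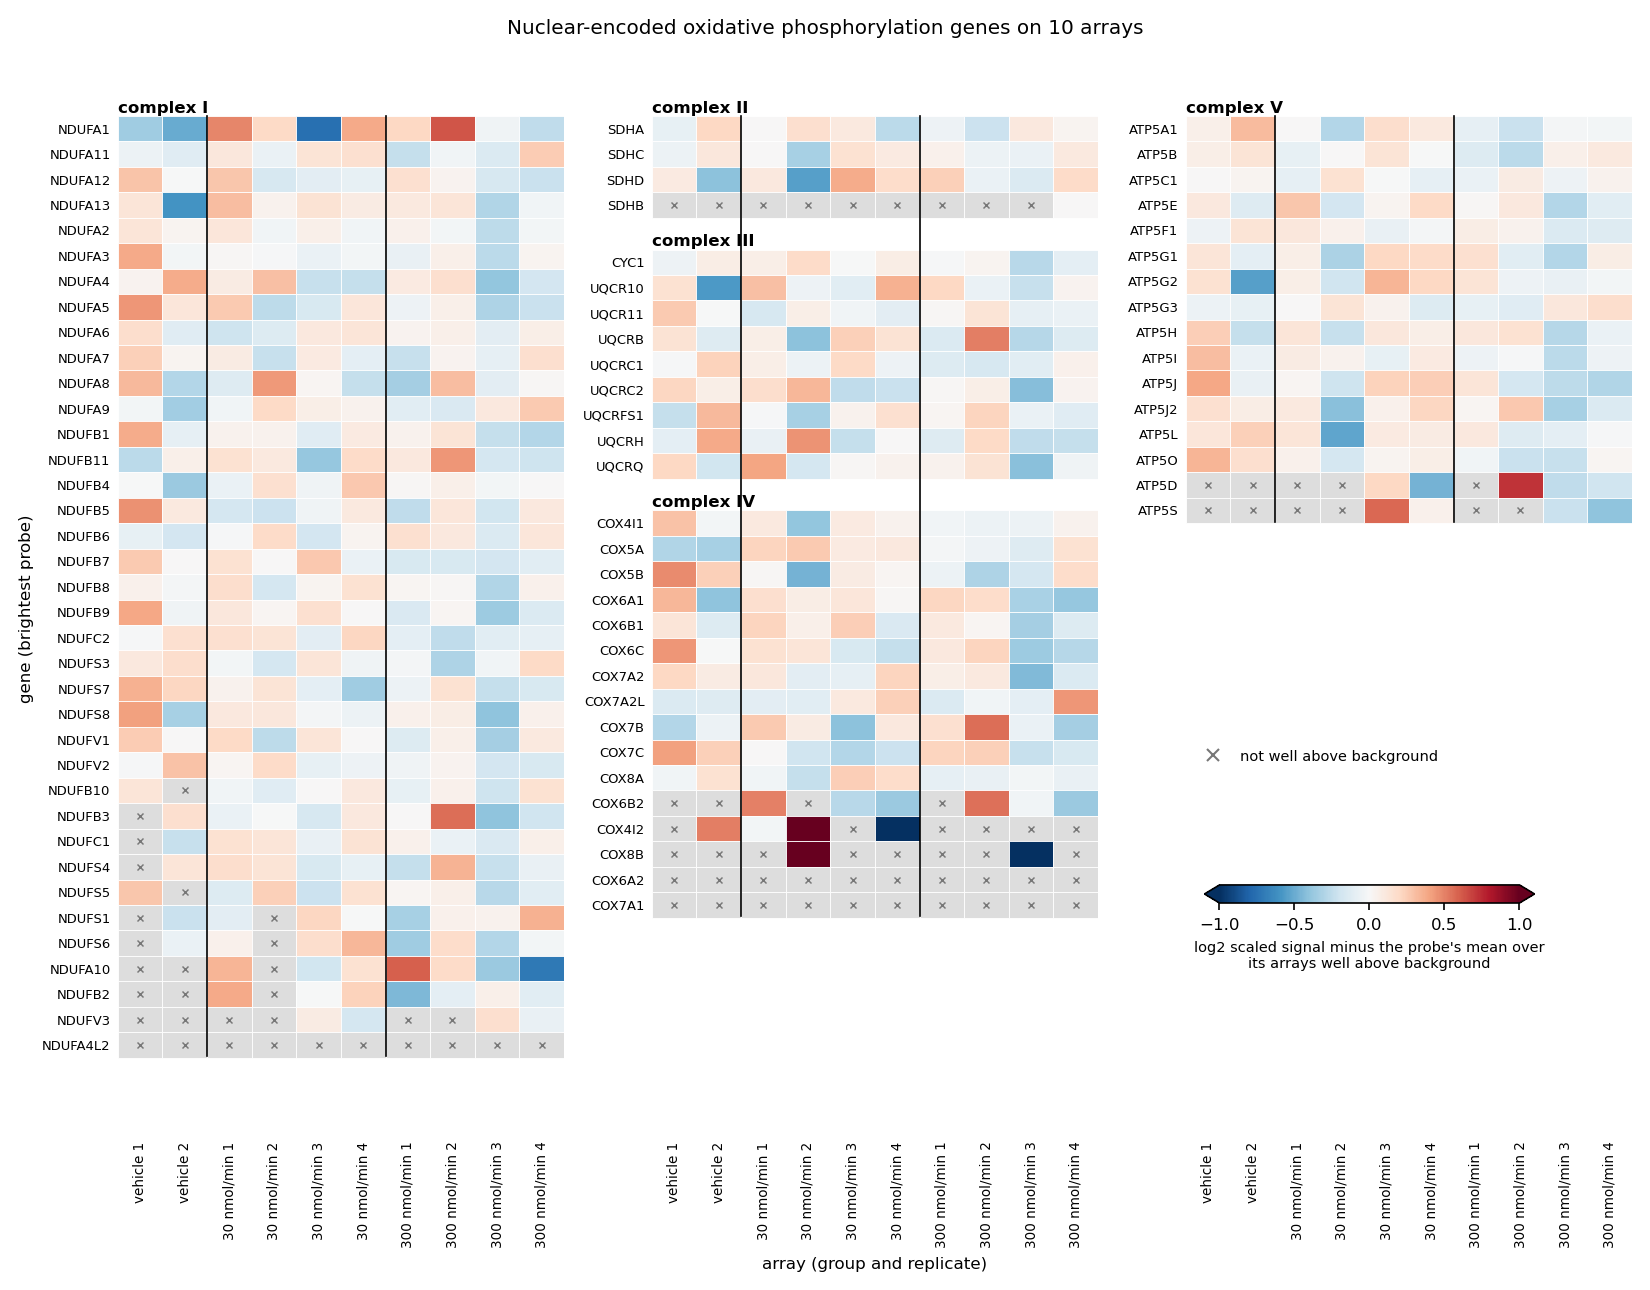
Each row is 1 gene, 82 of the 83 members, and each column 1 array, ordered vehicle, 30 nmol/min and 300 nmol/min; colour is the log2 scaled signal minus the probe's mean over the arrays on which it was well above background, and a grey cross marks an array on which it was not. Complex III has no cross, COX6A2, COX7A1 and NDUFA4L2 have one on all 10 arrays, and vehicle replicate 2 lacks NDUFB10 and NDUFS5, which the other 9 arrays hold.

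How many members an array detected moved with how bright the array was. The vehicle arrays detected 66 and 70 members, the 30 nmol/min arrays 75, 71, 77 and 78, and the 300 nmol/min arrays 73, 75, 78 and 78. Over all spots, 7.17 and 9.44% were well above background on the vehicle arrays, 11.5, 8.77, 18.3 and 19.6% at 30 nmol/min, with 10.5, 13.2, 19.6 and 19.1% at 300 nmol/min. Replicate 1 of each group lay on slide 1, replicate 2 of each on slide 2, and replicates 3 and 4 of both senktide groups, the brightest arrays, on slide 3, which held no vehicle array. On slides 1 and 2, where the groups can be set side by side, the 300 nmol/min arrays detected 73 and 75 members and the vehicle arrays 66 and 70. The part of slide and brightness in these counts was not tested further. In bulk samples of whole embryos, fewer cells of a type and less RNA per cell cannot be told apart.

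For comparison between arrays, log2 of the processed signal was taken relative to each array's 75th percentile over the 2491 probes detected on all 10 arrays, called the log2 scaled signal here. On this scale 0 is the level of that percentile, a step of 1 is a 2-fold step, and levels of different probes cannot be set against each other. The 64 members detected throughout had a median of 0.21 and 0.13 on the vehicle arrays, 0.20, −0.02, 0.09 and 0.11 at 30 nmol/min, with 0.07, 0.13, −0.08 and 0.10 at 300 nmol/min, so the arrays of the 3 groups overlap. Over the 10 arrays these members had a median SD of 0.191 (range 0.0779 to 0.456), beside 0.236 for all probes detected on all 10. By the brightest probe, the steadiest was ATP5C1, the gamma subunit that turns within ATP synthase (SD 0.0779). Next came ATP5F1, a stalk subunit (0.0992), NDUFA2 (0.111), ATP5G3, which encodes the proton-carrying c subunit (0.112), and CYC1, cytochrome c1 (0.125). The most variable was NDUFA1, a small membrane subunit of complex I (0.456).

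The widely expressed forms of complex IV were detected on every array and the muscle forms on few or none. COX4I1, COX6A1, COX6B1, COX7A2 and COX8A were each well above background on all 10 arrays, and so was NDUFA4. Their partners were detected on 4 (COX4I2), 0 (COX6A2), 6 (COX6B2), 0 (COX7A1), 2 (COX8B) and 0 (NDUFA4L2) arrays. The striated muscle markers MYH7, ACTA1, CKM and MB were well above background on 0 arrays. The brightest COX4I2 probe is 1 of 5 member probes annotated on the strand opposite to the gene's other probes; the COX4I2 probe on the gene's strand was detected on 0 arrays, so the COX4I2 values cannot be assigned to the transcript. COX6B2, the form known from testis, was detected on 0 of 2 vehicle, 3 of 4 30 nmol/min and 3 of 4 300 nmol/min arrays, near the limit of detection.

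**Figure D2:**
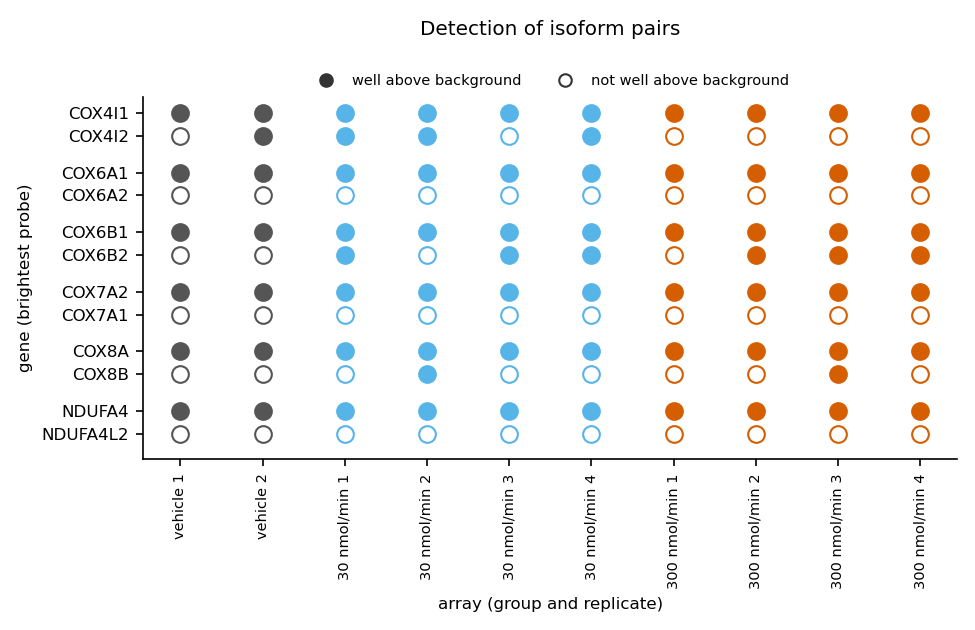
Detection of 6 pairs of related subunits on the 10 arrays, ordered vehicle, 30 nmol/min and 300 nmol/min; a filled circle is a probe well above background and an open circle one that was not. The widely expressed form of each pair is filled on all 10 arrays, and its partner on 0 to 6.

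Detection differed with the position of the probe in its transcript. The hexamer AATAAA stood in 46 of the 203 member probes (22.7%), read on the probe's own strand, beside 9.35% of all probes on the array; its reverse complement, TTTATT, stood in 8 member probes and 3.46% of all probes. Of the 46 member probes with AATAAA, 37 were detected on all 10 arrays, and of the 157 without it, 79 were; over the whole array the shares were 14.9% with and 4.75% without. In 27 genes with probes 200 or more bases apart, the probe later in the transcript was detected on all 10 arrays in 22 and the earlier one in 7. The later probe was detected on more arrays in 20 of these genes, on as many in 5 and on fewer in 2. The GC content of member probes (median 43.3%) lay near that of all probes (45%). Probes designed on sequences without a curated RefSeq mRNA accession were detected less: 19 of 29 such member probes were detected on 0 arrays, against 21 of the 174 with such an accession. A match to AATAAA is a description of these letters in the probe.

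The arrays carried transcripts known from the blastocyst. Of 8 trophectoderm markers 5 were detected on all 10 arrays (KRT8, KRT18, GATA2, GATA3 and TFAP2C) and CDX2, ELF5 and TEAD4 on 0; among 5 inner cell mass markers SOX2 was detected on 10 arrays, POU5F1 on 4, SALL4 on 1 and NANOG and LIN28A on 0. Of primitive endoderm markers PDGFRA was detected on 6 arrays and GATA4 and SOX17 on 0, and of secreted trophoblast products SSLP1 on 10, IFNT3 on 9 and PTGS2 on 8. Of the uterine and oviduct epithelium list OVGP1, SPP1 and PAEP were detected on 0 arrays, MUC1 on 1 and CLU on 7; of the stroma list COL1A1 and VIM on 0, DCN on 2 and COL1A2 on 3; of the blood list HBB and ALAS2 on 0 and HBA on 4. Of the leukocyte list LYZ was detected on 10 arrays, PTPRC on 5, ITGB2 on 4, and S100A8 and CD14 on 0, and of the cumulus and granulosa list STAR on 2 and the other 3 on 0. No marker passed the test between groups. The smallest adjusted p was 0.10 in limma, for PTGS2, a prostaglandin synthase of trophoblast. PTGS2 was detected on 0 of 2 vehicle arrays and all 8 senktide arrays. Testing needed detection on at least 2 arrays, so PTGS2 entered through the senktide arrays alone. It was at least 1.93-fold higher at 300 nmol/min and at least 1.61-fold higher at 30 nmol/min. SSLP1 of the same list went the other way, with −0.41 at 300 nmol/min (adjusted p = 0.36, limma) and −0.63 at 30 nmol/min (adjusted p = 0.31, limma). IFNT3 had 0.19 and 0.32. At 30 nmol/min against vehicle LYZ had −0.54 (adjusted p = 0.43, limma) and TFAP2C 0.54 (adjusted p = 0.44, limma). The other tested leukocyte markers, PTPRC and ITGB2, had fitted values of 0.22 and 0.06 there, of the other sign than LYZ. Both were detected on 0 of 2 vehicle arrays, so these values rest on dim signals. HBA had −0.81 for 300 minus 30 nmol/min (adjusted p = 0.999, limma), with 2 of 4 arrays of each dose well above background.

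The first comparison asked whether member transcripts differed between embryos of cows given 300 nmol/min senktide and vehicle. Of the 83 members, 79 passed the filter for testing, detection on at least 2 arrays, which 25.7% of all names passed by their brightest probe. None of the 79 passed an adjusted p of 0.05 in limma, where 1 of 8938 tested probes did (0.0112%). At an unadjusted p under 0.05 in limma there were 2 members, and 13.8% of all tested probes. The smallest adjusted p of a member was 0.32 (limma). The median difference of the members was −0.12, with 58 of 79 lower, beside −0.11 over all tested probes, with 5308 of 8938 lower. Among the 64 members detected on all 10 arrays it was −0.13 with 50 of 64 lower, beside −0.06 with 1423 of 2491 lower for all probes detected on all 10 arrays; this gap between medians was not tested. With every probe entering the 75th percentile instead, the members' median became 1.05 as the median of all tested probes moved up by 1.06, so most of that shift was shared by all tested probes. The 95% interval of the difference lay within 2-fold either way for 69 of the 79 members, against 3363 of 8938 tested probes; for those 69 a change above 2-fold lay outside the interval, while smaller changes could not be told from none.

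By complex the differences were small. Among members of complex I the median was −0.10 (23 of 37 lower), of complex II −0.02 (2 of 3), of complex III −0.10 (8 of 9), of complex IV −0.21 (11 of 14) and of complex V −0.16 (14 of 16). In complex II the tested members ranged from −0.10 to 0.21. On slide 1 alone the members' median was −0.13 (all tested probes −0.22), and on slide 2 alone 0.05 (all tested probes 0.01). The 2 slides therefore gave medians of opposite sign, each with 1 array a group and no replicate.

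Every 300 nmol/min array lay above both vehicle arrays for 3 members (3.80% of 79), COX5A, NDUFA1 and NDUFC1, beside 9.25% of all tested probes. Every 300 nmol/min array lay below both for 12 members (15.2%), beside 16.3% of all tested probes, among them ATP5A1, ATP5L, ATP5O, COX4I2, COX5B, COX8B, NDUFA5, NDUFB7, NDUFC2, NDUFS7 and UQCRC2. Of the 12, 10 were detected on all 10 arrays. The values of the others rest on dim signals: COX4I2 was detected on 1 of 2 vehicle and 0 of 4 300 nmol/min arrays, and COX8B on 0 of 2 and 1 of 4. Neither share of members exceeds that of the array.

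**Figure D3:**
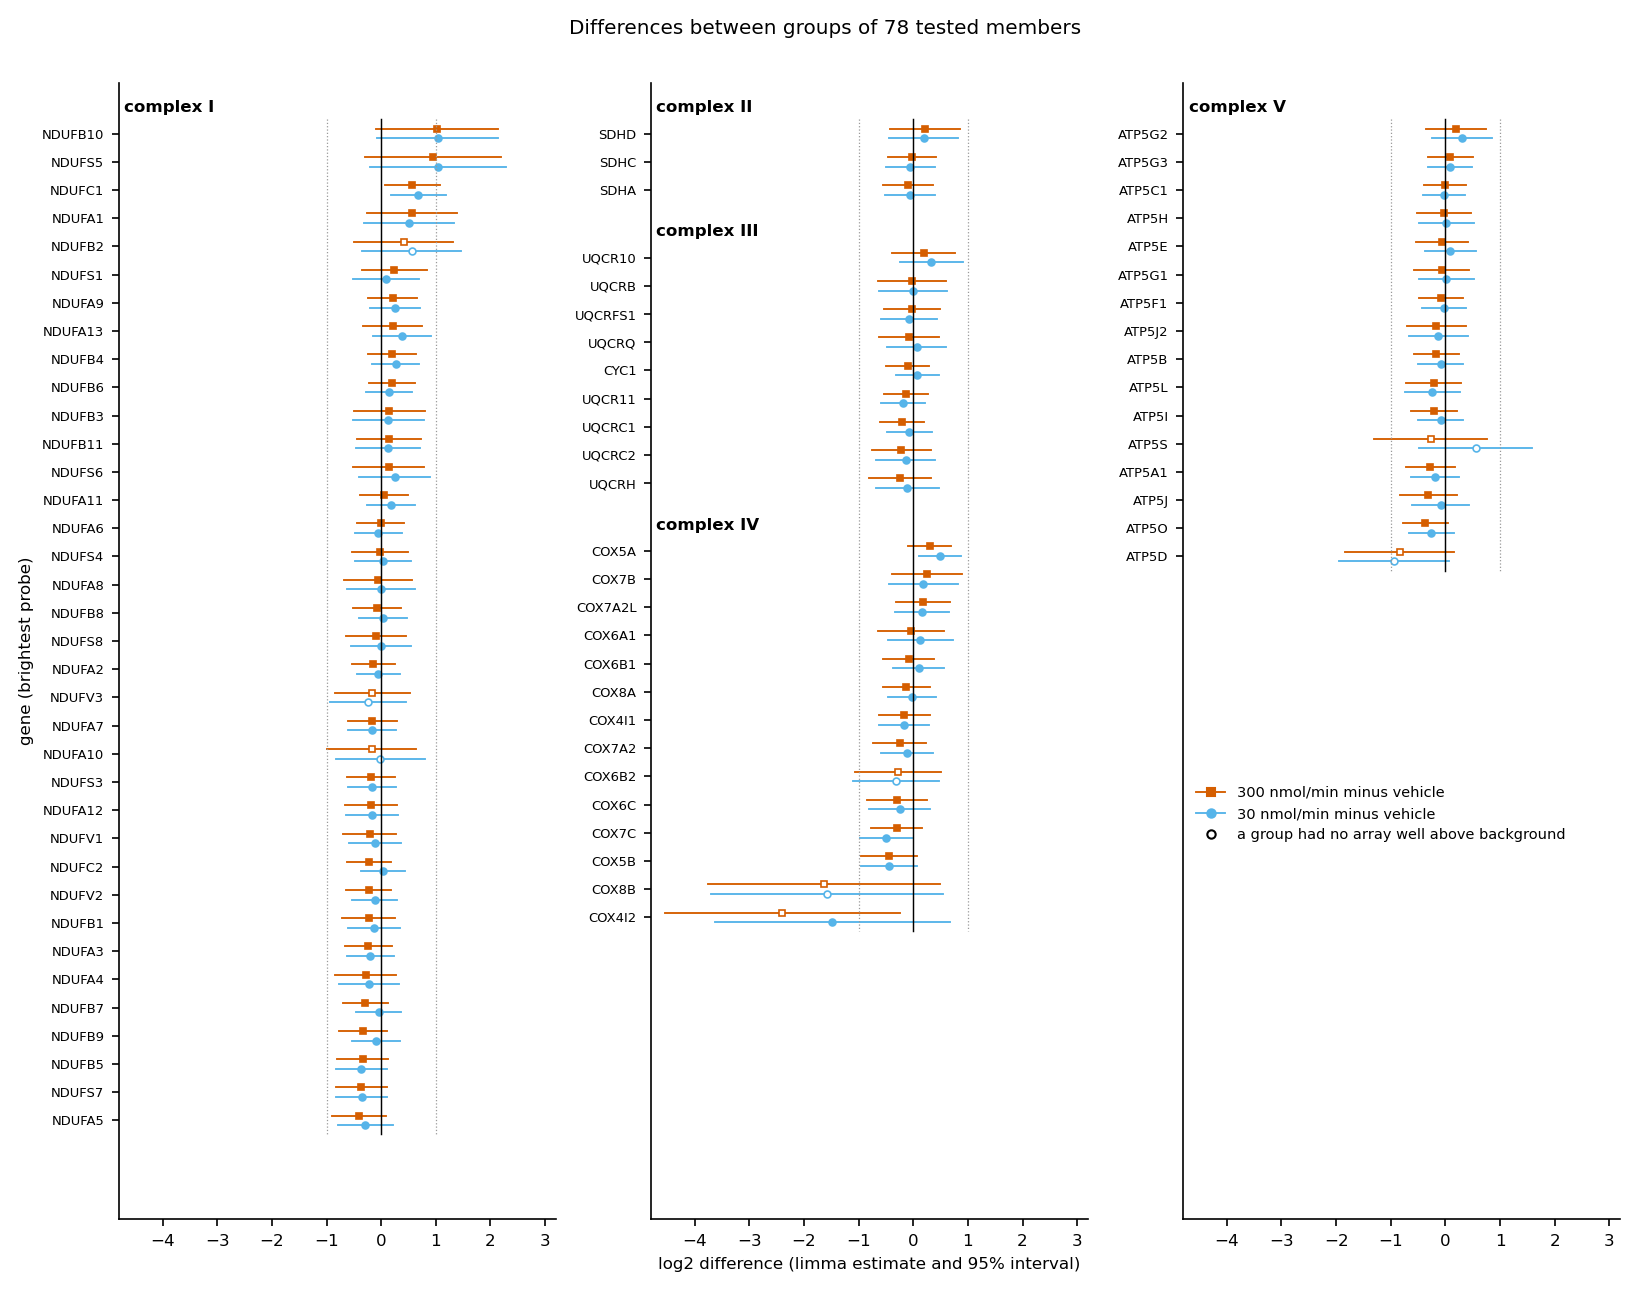
Log2 difference of 78 of the 79 tested members from vehicle, with its 95% interval from limma, for 300 nmol/min (orange squares, upper) and 30 nmol/min (blue circles, lower), by complex; open symbols mark members with a group in which no array was well above background, and dotted lines mark a 2-fold difference. Most intervals include 0 and lie within the dotted lines, and COX8B and COX4I2 have the widest.

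The second comparison set 30 nmol/min against the same 2 vehicle arrays. None of the 79 members passed in limma, and 0 of 8938 tested probes did (0%). At an unadjusted p under 0.05 there were 3 members, beside 11.3% of all tested probes, and the smallest adjusted p of a member was 0.34 (limma). The median difference was −0.04 with 46 of 79 lower, beside −0.11 and 5364 of 8938 over all tested probes, and among members detected on all 10 arrays −0.05 with 40 of 64 lower, beside −0.06 and 1451 of 2491; with every probe entering the 75th percentile it was 1.01, with all tested probes moved up by 0.95. The 95% interval lay within 2-fold for 69 members. Medians were −0.0046 in complex I, −0.05 in II, −0.07 in III, −0.14 in IV and −0.06 in V. Every 30 nmol/min array lay above both vehicle arrays for COX5A, COX7A2L and NDUFC1 (3.80% of members, 7.62% of tested probes) and below both for ATP5O, COX5B, COX7C, NDUFB5 and NDUFS7 (6.33% of members, 11.9% of tested probes).

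The third comparison set the doses against each other, with 4 arrays each. Members and tested probes past the threshold were 0 (0%) in limma, and at an unadjusted p under 0.05 there were 0 members and 3% of tested probes. The smallest adjusted p of a member was 0.999 (limma). The median difference, 300 minus 30 nmol/min, was −0.07, with 57 of 79 lower, beside −0.01 and 4621 of 8938 over all tested probes; with every probe entering the 75th percentile it was 0.05, where the median of all tested probes was 0.10. Among the 64 members detected on all 10 arrays it was −0.07 with 47 of 64 lower, beside −0.0012 and 1251 of 2491 for all probes so detected. It was −0.08 on slide 1, 0.08 on slide 2 and −0.13 on slide 3. The 95% interval lay within 2-fold for 75 of 79 members, against 5714 of 8938 tested probes. No member had every 300 nmol/min array above every 30 nmol/min array (1.56% of tested probes), and 1 member, NDUFB7 (1.27%), had every array below (1.14% of tested probes).

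Both senktide doses are set against the same 2 vehicle arrays, so the differences of the members below share them. On all 8 senktide arrays, COX5A and NDUFC1 lay above both vehicle arrays (2.53% of members, 4.33% of tested probes) and ATP5O, COX5B and NDUFS7 below both (3.80% of members, 7.03% of tested probes). Both shares of members were below those of the array, and these genes are shown as a description.

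In complex IV, COX5A and COX5B lay on opposite sides of vehicle. COX5A, a nuclear subunit that joins the catalytic core early in assembly, had log2 scaled signals of 0.68 and 0.65 on the vehicle arrays, 1.20, 1.24, 1.07 and 1.08 at 30 nmol/min, with 0.96, 0.93, 0.85 and 1.13 at 300 nmol/min. No senktide array reached down to the vehicle arrays, and the 30 nmol/min arrays were the highest except for the overlap of replicates 3 and 4 with 1 array at 300 nmol/min. The difference was 0.30 (SE 0.17, 95% interval −0.09 to 0.69) at 300 nmol/min and 0.49 (SE 0.17, 95% interval 0.10 to 0.88) at 30 nmol/min, with adjusted p of 0.43 and 0.37 in limma. Its direction at 300 nmol/min turned, relative to all probes, after quantile normalization (−0.21) and after normexp with quantile normalization (−0.0012). On slides 1 and 2 it was 0.28 and 0.28 for 300 nmol/min, with 0.52 and 0.59 for 30 nmol/min. COX5B, a zinc-binding subunit on the matrix side, had 0.58 and 0.34 on the vehicle arrays, 0.11, −0.37, 0.18 and 0.12 at 30 nmol/min, with 0.04, −0.21, −0.07 and 0.28 at 300 nmol/min. All 8 senktide arrays lay below both vehicle arrays. The difference was −0.45 (SE 0.23, 95% interval −0.96 to 0.06) at 300 nmol/min and −0.45 at 30 nmol/min, with adjusted p of 0.40 and 0.48 in limma.

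COX7C, a small membrane subunit, separated 30 nmol/min but not 300 nmol/min from vehicle. Its signals were 0.61 and 0.44 on the vehicle arrays, 0.20, −0.0019, −0.10 and −0.01 at 30 nmol/min, with 0.42, 0.44, −0.03 and 0.04 at 300 nmol/min. The 300 nmol/min arrays of slides 1 and 2 lay beside vehicle and those of slide 3 beside 30 nmol/min. The difference was −0.50 (95% interval −0.97 to −0.03, adjusted p = 0.43 in limma) at 30 nmol/min and −0.31 at 300 nmol/min; the difference between the doses did not pass the test. Other complex IV values at 300 nmol/min were −0.25 for COX7A2 and 0.26 for COX7B, and the sign of COX7B turned after quantile normalization (−0.22) and over the mean of its probes (−0.07). COX4I2 was detected on 1 of 2 vehicle arrays, 3 of 4 arrays at 30 nmol/min and 0 of 4 at 300 nmol/min, and the opposite-strand probe was at least 1.85-fold lower at 300 than at 30 nmol/min (adjusted p = 0.999, limma). Its difference of 30 nmol/min from vehicle was −1.48 (adjusted p = 0.54, limma).

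**Figure D4:**
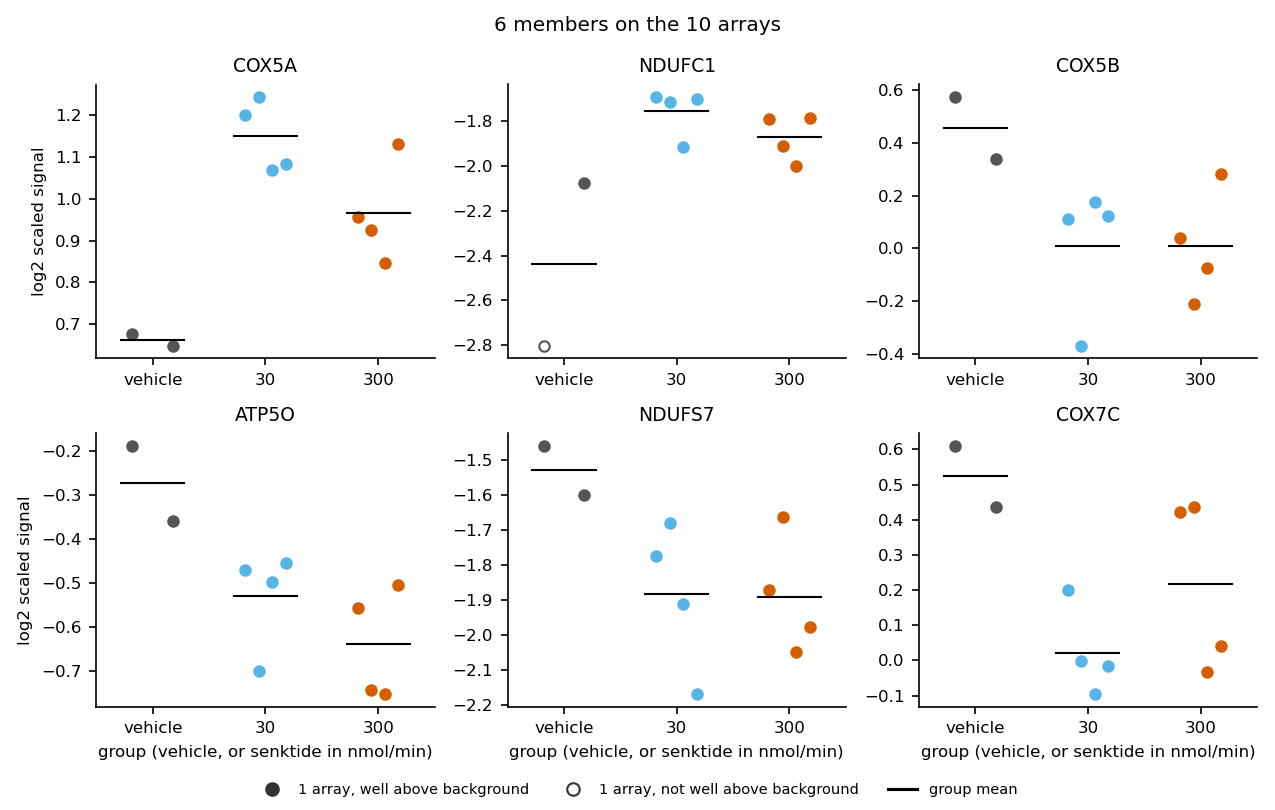
Log2 scaled signal of COX5A, NDUFC1, COX5B, ATP5O, NDUFS7 and COX7C on each array, with vehicle left, 30 nmol/min next and 300 nmol/min right; points are arrays and lines are group means. COX5A and NDUFC1 lie higher on all 8 senktide arrays than on both vehicle arrays, COX5B, ATP5O and NDUFS7 lower, and for COX7C the 300 nmol/min arrays overlap both other groups.

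In complex I, NDUFC1, a small accessory subunit of the membrane arm, had the lowest unadjusted p of a complex I member that was detected in every group. Its signals were −2.80 and −2.08 on the vehicle arrays, −1.69, −1.72, −1.92 and −1.70 at 30 nmol/min, with −1.79, −1.91, −1.999 and −1.79 at 300 nmol/min. All senktide arrays lay above vehicle, and vehicle replicate 1, the lowest, was not well above background. The difference was 0.57 (SE 0.23, 95% interval 0.06 to 1.07, adjusted p = 0.32 in limma) at 300 nmol/min and 0.68 (95% interval 0.18 to 1.19, adjusted p = 0.34 in limma) at 30 nmol/min. On slide 2 it was 0.17 at 300 nmol/min, and on slide 1 the vehicle array was the dim one. A second NDUFC1 probe lay near the limit of detection, well above background on 1 of 4 arrays at 300 nmol/min, 0 of 4 at 30 nmol/min and 1 of 2 vehicle arrays, and gives no direction.

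NDUFS7, the core subunit that holds the last iron-sulfur cluster before coenzyme Q, had −1.46 and −1.60 on the vehicle arrays, −1.77, −1.68, −1.91 and −2.17 at 30 nmol/min, with −1.87, −1.66, −2.05 and −1.98 at 300 nmol/min. Every senktide array was lower than vehicle, with the nearest senktide array at −1.66 and the lower vehicle array at −1.60. The mean difference was −0.36 for each dose. On slides 1 and 2 it was −0.41 and −0.06 for 300 nmol/min, with −0.32 and −0.08 for 30 nmol/min. NDUFA5, an accessory subunit of the matrix arm, had a difference of −0.41 at 300 nmol/min (adjusted p = 0.42, limma), and NDUFB5, of the membrane arm, −0.36 at 30 nmol/min (adjusted p = 0.50, limma). NDUFB7, of the same arm, had −1.10, −1.10, −1.13 and −1.06 at 300 nmol/min, against −0.79, −0.94, −0.67 and −1.01 at 30 nmol/min. The 300 nmol/min arrays lay closely together, each below all 4 arrays at 30 nmol/min, with a difference of −0.24 (95% interval −0.58 to 0.09, adjusted p = 0.999 in limma). Differences of 300 from 30 nmol/min were −0.24 for NDUFC2 and −0.23 for NDUFB9. NDUFB2 was detected on 0 of 2 vehicle, 3 of 4 30 nmol/min and 4 of 4 300 nmol/min arrays, so it was tested through the senktide arrays alone. By group means it was at least 1.08-fold higher at 300 nmol/min and at least 1.19-fold higher at 30 nmol/min than vehicle. The slides parted at 300 nmol/min, with −0.60 on slide 1 and 1.18 on slide 2. At 30 nmol/min they gave 0.23 and 0.64. The arrays with crosses were the dimmer ones. NDUFA10 had the same detection counts without a rise. Its mean log2 scaled signal was −3.73 at 300 nmol/min and −3.56 on the vehicle arrays, which were dim for it.

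NDUFB10 and NDUFS5, accessory subunits at the intermembrane-space side of complex I, had the highest values of all members against vehicle, and 1 array carried them. NDUFB10 had −0.42 and −2.77 on the vehicle arrays, −0.58, −0.67, −0.55 and −0.45 at 30 nmol/min, with −0.63, −0.50, −0.76 and −0.39 at 300 nmol/min. NDUFS5 had −0.45 and −3.06 on the vehicle arrays, −0.87, −0.49, −0.94 and −0.58 at 30 nmol/min, with −0.71, −0.67, −1.01 and −0.84 at 300 nmol/min. Vehicle replicate 2 was more than 4-fold below the other 9 arrays in both genes, and those 9 overlapped across groups. The differences were 1.02 for NDUFB10 at 300 nmol/min and 1.03 for NDUFB10 and 1.04 for NDUFS5 at 30 nmol/min. Without vehicle replicate 2 they were −0.15, −0.14 and −0.27. Without vehicle replicate 1, the only vehicle array left had neither probe well above background. The values there, −2.77 and −3.06, exceeded that array's lowest value well above background (−3.94). They entered as measured, so the folds are no lower bounds. Against this 1 array NDUFB10 was 4.58-fold higher at 300 nmol/min and 4.61-fold higher at 30 nmol/min, and NDUFS5 was 5.07-fold higher at 30 nmol/min. Their adjusted p of 0.013, 0.015 and 0.017 in limma passed the threshold, with the lone array assumed to vary like the other groups.

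Probes of 1 gene parted on vehicle replicate 2 in other members, chosen here after their values were seen. For COX8A, the probe pair that shares 59 bases gave log2 scaled signals of 0.57 and −5.01 on that array, from processed signals of 183 and 3.82; on the other 9 arrays the second probe lay between −0.87 and 0.66 and its partner between 0.18 and 0.66. The shifted ATP5H probe was at −1.06 on the array, against 0.27 or more on the other 9, and a second COX4I1 probe at −0.94, against 0.49 or more. Among 3250 probes detected on at least 9 arrays, 27 lay more than 1 below the lowest of the other arrays on vehicle replicate 2, and 5 of the 27 were member probes, of NDUFB10, NDUFS5, ATP5H, COX8A and COX4I1. Of the 27, 24 lay in array columns 1 to 32 of 85, where 39.2% of the 3250 lie, and 9 in column 1, which holds 28 of the 3250. Vehicle replicate 1 had 35 such probes, 18 of them in columns 1 to 32 and 1 a member probe, a second probe of NDUFA8. At 30 nmol/min replicate 2 had 10 such probes and replicate 3 had 7, at 300 nmol/min replicate 2 had 1 and replicate 4 had 2, and the other 4 senktide arrays had 0. The part of single spots in the NDUFB10 and NDUFS5 values was not tested.

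**Figure D5:**
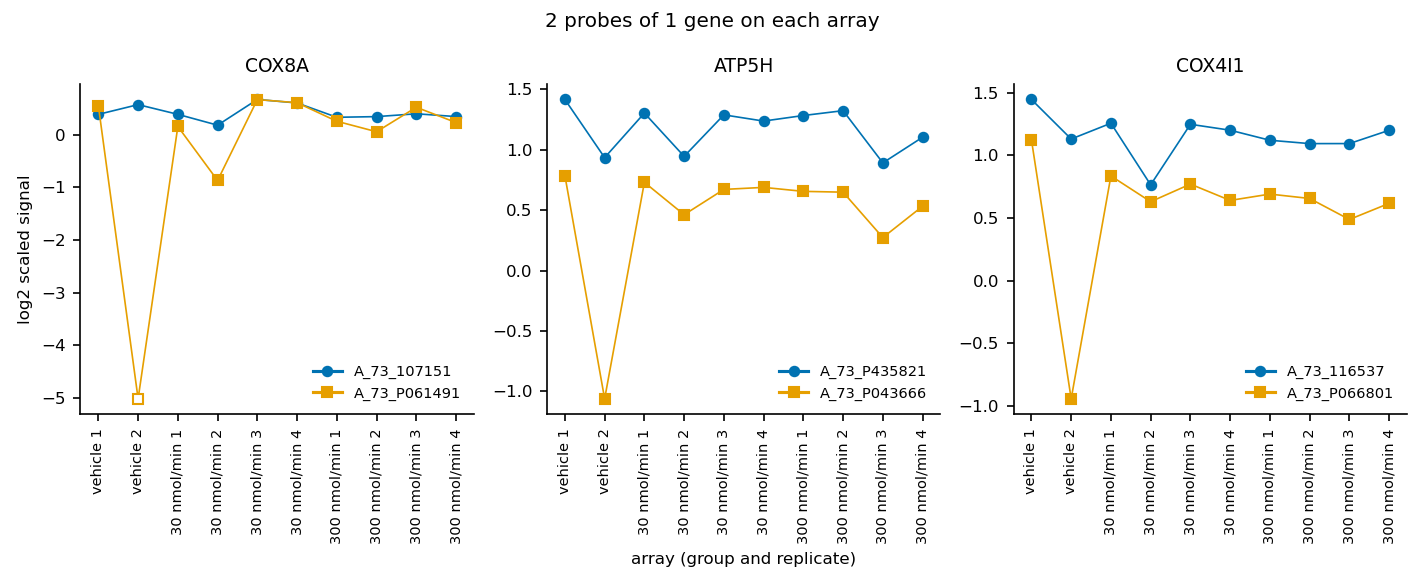
Log2 scaled signal of pairs of probes of COX8A, ATP5H and COX4I1 on each of the 10 arrays, ordered vehicle, 30 nmol/min and 300 nmol/min. The probes of a pair part most on vehicle replicate 2, where the second COX8A probe is at −5.01 and its partner at 0.57.

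Over the 49 members with 2 or more tested probes, 54 of 80 further probes had the sign of the brightest probe at 300 nmol/min against vehicle. The range between a gene's probes had a median of 0.33 at 300 nmol/min, 0.34 at 30 nmol/min and 0.11 between the doses, the comparison without vehicle arrays. With dim probes included, it exceeded 1 in 7 genes at 300 nmol/min, in 5 at 30 nmol/min and in 0 between the doses. Among the 7 were COX8A (2.62), NDUFC1 (2.25), COX4I1 (1.53), NDUFA8 (1.19) and ATP5C1 (1.04), whose brightest probe was the steadiest.

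In complex II, SDHA, the flavoprotein that oxidises succinate, and the membrane anchors SDHC and SDHD were detected on all 10 arrays, while SDHB, the iron-sulfur subunit, was detected on 1. SDHD had a difference of 0.21 at 300 nmol/min, which turned after quantile normalization (−0.25), after normexp with it (−0.06), over the mean of its probes (−0.29) and without vehicle replicate 2 (−0.03). Complex III held all 9 members in a narrow range. Values at 300 nmol/min were −0.20 for UQCRC1 and −0.22 for UQCRC2, the core proteins, and −0.25 for UQCRH, the hinge protein of cytochrome c1. UQCR10, a small subunit beside cytochrome c1, had 0.33 at 30 nmol/min, which was −0.03 without vehicle replicate 2. None of these intervals excluded 0.

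In complex V, ATP5O, the protein that ties the catalytic head of ATP synthase to its stalk, had −0.19 and −0.36 on the vehicle arrays, −0.47, −0.70, −0.50 and −0.46 at 30 nmol/min, with −0.56, −0.74, −0.75 and −0.51 at 300 nmol/min. All 8 senktide arrays were lower than both vehicle arrays. The difference was −0.37 (SE 0.18, adjusted p = 0.39 in limma) at 300 nmol/min and −0.26 at 30 nmol/min, and on slides 1 and 2 it was −0.37 and −0.39 at 300 nmol/min. ATP5A1, the alpha subunit of the head, had −0.28 and ATP5J, coupling factor 6, −0.31 at 300 nmol/min. ATP5G2, for the c subunit, had 0.30 at 30 nmol/min and −0.05 without vehicle replicate 2. Differences of 300 from 30 nmol/min were −0.22 for ATP5J, 0.07 on slides 1 and 2 alone, and −0.83 for ATP5S, detected on 2 of 4 arrays of each dose. With all dim signals set to a common floor the ATP5S difference was 0.

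The genes around the complexes gave the same counts of 0 past the threshold. Of the 13 subunits encoded in mitochondrial DNA, 12 had probes, 8 were detected on all 10 arrays and 11 were tested. Their median difference was −0.18 at 300 nmol/min against vehicle, −0.41 at 30 nmol/min against vehicle (11 of 11 lower) and 0.29 for 300 minus 30 nmol/min (8 of 11 higher). Over all tested probes 5364 of 8938 were lower at 30 nmol/min, and 4317 were higher for 300 minus 30 nmol/min. ND4L and ATP8 were detected on 0 vehicle arrays, so their differences from vehicle rest on dim signals. In these comparisons 0 of 11 passed. An unadjusted p under 0.05 in limma was found for 3, 2 and 4, beside 13.8, 11.3 and 3% of all tested probes. ND2, a complex I subunit, had a difference of −0.81 at 300 nmol/min (adjusted p = 0.18, limma) and −0.49 at 30 nmol/min (adjusted p = 0.40, limma). Its probe was well above background on only 1 of 2 vehicle arrays and 3 of 4 arrays of each dose. COX1, the catalytic subunit of complex IV, was 0.81 higher at 300 than at 30 nmol/min (adjusted p = 0.999, limma). The nuclear members of complexes I, III, IV and V had medians between −0.13 and −0.06 in that last comparison; the difference between the 2 genomes was not tested.

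Of the assembly factors on the array, detection on all 10 arrays was found for 1 of 9 of complex I, 1 of 2 of complex II, 1 of 3 of complex III, 0 of 12 of complex IV and 0 of 4 of complex V. The list of complex V also held its inhibitor ATPIF1 and the small subunits USMG5 and MP68, each detected on all 10 arrays. Of the 3, 2, 2, 5 and 6 tested on these lists, 0 passed in limma in any comparison, with at most 1 gene of a list at an unadjusted p under 0.05. COX16, an assembly factor of complex IV, was detected on 0 of 2 vehicle, 3 of 4 30 nmol/min and 4 of 4 300 nmol/min arrays. It was at least 1.60-fold higher at 300 nmol/min and 1.32-fold higher at 30 nmol/min than vehicle, with adjusted p of 0.24 and 0.37 in limma. TMEM70, which helps assemble ATP synthase, was likewise detected on 0 vehicle arrays and was at least 1.30-fold higher at 30 nmol/min (adjusted p = 0.32, limma). COX16 and TMEM70 passed the filter for testing through the senktide arrays alone, and the vehicle arrays were among the dimmest. The part of array brightness in these values was not tested. LYRM7, an assembly factor of complex III, had −0.63 and FMC1, of complex V, −0.66 for 300 minus 30 nmol/min, and each was 0 with a common floor.

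Of the other lists, 7 of 13 citrate cycle genes, 2 of 11 genes of cytochrome c and coenzyme Q, 5 of 9 of nucleotide exchange and uncoupling, 4 of 8 of supercomplexes and cristae and 2 of 11 regulators of mitochondrial biogenesis were detected on all 10 arrays. Of the 12, 8, 7, 7 and 7 tested, 0 passed in limma in any comparison, with at most 2 of a list at an unadjusted p under 0.05. CS, citrate synthase, had −0.71 at 30 nmol/min against vehicle (adjusted p = 0.31, limma), and 0.39 for 300 minus 30 nmol/min (adjusted p = 0.999, limma), and was detected on all 10 arrays. SLC25A4, an exchanger of ADP and ATP, had 0.99 at 30 nmol/min against vehicle (adjusted p = 0.34, limma), with 1 of 2 vehicle arrays well above background. CHCHD6, of the cristae, had −0.87 at 300 nmol/min against vehicle (adjusted p = 0.27, limma), also with 1 of 2 vehicle arrays well above background. SUCLA2, of the citrate cycle, was detected on 0 vehicle arrays and was at least 1.09-fold higher at 300 nmol/min (adjusted p = 0.33, limma). It passed the filter for testing through the senktide arrays alone.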

How the data were processed

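Groups and replicate numbers of the 10 arrays came from the sample titles. Intensity values per spot come from the deposited scanner files; per the file headers they were written by Agilent Feature Extraction 11.5.1.1, although the submitters' processing notes give 10.5.1.1. Per the file headers, the processed intensity had the background subtracted and was left unscaled between arrays. Deposited flags, coded 0 or 1, mark outlier spots and spots well above background; 0 member values were outliers and 0 probe spots were saturated. The deposited series matrix holds log2 values of unstated scale, centring and direction. A comparison with the scanner files showed them to be log2 processed intensity after subtraction of the array's 75th percentile (every probe) and then of the probe's median: at least 99.88% of each column matched within 0.01. Medians of its columns were 0.22 and 0.12 for vehicle, 0.04, 0.07, −0.13 and −0.31 for 30 nmol/min, and 0.16, −0.18, −0.28 and −0.23 for 300 nmol/min. Every column belonged to a sample (0 unmatched).

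Probe spots were averaged and log2-transformed, and the array's 75th percentile, taken over the 2491 probes that all 10 arrays detected, was subtracted; that percentile lay at processed signals of 79.4 to 481. A gene was read by its brightest probe. Testing took the 8938 of 43653 probes well above background on at least 2 arrays. The model in limma 3.58.1 under R 4.3.3 (lmFit, eBayes) had a coefficient for each group, fitted to all 10 arrays together, with Benjamini-Hochberg adjustment over all tested probes and a threshold of 0.05. The code was tested on simulated data. Where a group had 0 arrays well above background for a probe, a fold is a lower bound: on each dim array the probe's own value or the lowest value well above background, whichever was higher, entered the dim mean, and a bound under 1 is left out. For NDUFB10 and NDUFS5 without vehicle replicate 1 the own value was the higher, so those folds are no bounds. Differences are printed for members with a detected array in both groups and a size of at least 0.2 (log2). Array gene names were checked against RefSeq (ARS-UCD2.0, names only), and coordinates follow build Btau_3.1 of the file headers. The number of arrays limits the precision. Tables and figures used Python 3.11.15 (pandas 2.3.3, numpy 2.4.6, matplotlib 3.10.9).

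The members and lists were chosen with earlier results of these data known. Named members were, per comparison and complex, the 4 with the smallest p, any past the threshold, any detected on all arrays of a group and on none of another, and the isoform pairs; of other lists, the gene with the smallest p, given here where its p was under 0.05 before adjustment and neither group was dim throughout or a bound could be given. Values of the other tested leukocyte and secreted trophoblast markers are given beside those so chosen. The probe pairs of COX8A, ATP5H and COX4I1, and members named for steadiness or for lying outside the vehicle arrays, were chosen after their values were seen. A further member, which entered every fit and count, is not reported here by name. Replicate numbers were checked for pairing by the deviations of arrays from their group means. Same-numbered senktide arrays, which also share a slide, correlated at r = 0.487, 0.495, 0.565 and 0.575. Unlike-numbered ones had 0.545 and 0.492 within slide 3 and 0.413 and 0.417 across slides 1 and 2. Between slide 3 and slides 1 and 2 they had −0.531 to −0.472. Pairing of the doses by number therefore cannot be told apart from slide. Vehicle and senktide arrays of the same number had 0.124 and 0.179 (number 1) and −0.188 and −0.198 (number 2). The 2 vehicle deviations mirror each other, so the sign of r with either is fixed by the other. These values cannot decide pairing. Alternatives were other scalings, normalizations, background corrections, filters, blocks, probe choices and the omission of each array.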

Additional observations from a re-analysis of the deposited data

Results flagged for a closer look

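In 90 groups of 4 arrays checked, the highest or lowest array stood apart from the other 3 by more than Dixon's 95% critical value in 7. Chance marks about 1 in 20 such groups. At 30 nmol/min, replicate 2 was low for COX4I1 (0.76, with the nearest array at 1.20), for COX5B (−0.37, nearest 0.11) and for the median of the complex V members detected on all 10 arrays (0.83, nearest 1.15). Replicate 3 at 30 nmol/min was low for NDUFC1 (−1.92, nearest −1.72). At 300 nmol/min, replicate 3 was low for ATP5I (1.20, nearest 1.41) and for UQCRC2 (−1.40, nearest −0.97), and replicate 2 was low for NDUFC2 (−0.0669, nearest 0.0693). All are log2 scaled signals.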

How the results depend on the processing

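The counts of detected members kept their size under all alternatives run. They rest on the deposited flag, which other scalings, normalizations, background corrections and blocks leave as it is. For those alternatives this outcome was therefore fixed in advance. The count of members past the threshold was 0 in every comparison and alternative except without vehicle replicate 1, where it was 2 at 300 nmol/min and 2 at 30 nmol/min against vehicle (range 0 to 2 over the omissions). Over all tested probes, 300 nmol/min against vehicle gave 1, and 0 with every probe entering the 75th percentile, with array medians as the scale, with the deposited matrix values, with no filter or detection on every array, with slide as a block, with the replicate block, and on slides 1 and 2 alone. It gave 142 after quantile normalization, 107 after normexp with quantile normalization, 26 with a common floor, and 0 to 50 over the omissions (32 without vehicle replicate 1 and 50 without vehicle replicate 2). For 30 nmol/min against vehicle, 0 became 107, 36 and 26 under the last 3 settings named, and 0 to 36 over the omissions (34 without vehicle replicate 1 and 36 without vehicle replicate 2). For 300 against 30 nmol/min, 0 became 1 after normexp with quantile normalization and 1 with the replicate block. The cause was not tested.

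The replicate number, entered as a block, gave 0 members past the threshold in each comparison. Member medians were −0.08 (300 against vehicle), −0.01 (30 against vehicle) and −0.07 (300 against 30 nmol/min). This block changed the call of no named gene.

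The median of the members against vehicle was 1.05 (300) and 1.01 (30) with every probe entering the 75th percentile or with the deposited values, and 1.30 and 1.28 with array medians as the scale, with all tested probes moving up by 0.95 to 1.31. Without 1 array it ran between −0.17 and −0.06 (300 against vehicle), −0.10 and 0.0042 (30 against vehicle) and −0.11 and −0.02 (300 against 30 nmol/min).

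Of the named genes' values, 929 alternatives kept direction and call, 22 turned and 3 passed the threshold. Values are relative to the shift of all tested probes under a scaling or normalization. Quantile normalization turned SDHD (−0.25), COX5A (−0.21) and COX7B (−0.22) at 300 and UQCR10 (−0.062) and ATP5G2 (−0.11) at 30 nmol/min against vehicle, and normexp with it SDHD (−0.060) and COX5A (−0.0012). The mean over a gene's tested probes turned NDUFC1 (−0.56 at 300, −0.46 at 30, where its second probe was dim on 7 of 8 senktide arrays), SDHD (−0.29) and COX7B (−0.075). Omitting vehicle replicate 2 turned NDUFB10 (−0.15 at 300, −0.14 at 30), NDUFS5 (−0.27), SDHD (−0.035), UQCR10 (−0.028) and ATP5G2 (−0.051). Omitting vehicle replicate 1 gave 0.46 for SDHD, 0.69 for UQCR10 and 0.66 for ATP5G2, and put NDUFB10 (fitted values 2.20 at 300, adjusted p = 0.013, and 2.20 at 30, adjusted p = 0.015) and NDUFS5 (2.34 at 30, adjusted p = 0.017) past limma's threshold. The lone vehicle array, dim for both, was assumed to vary like the other groups, and the folds against its own values are 4.58, 4.61 and 5.07. For 300 against 30 nmol/min a common floor gave 0 for ATP5S, LYRM7, FMC1 and HBA, and slides 1 and 2 gave 0.074 for ATP5J. Scan was not run apart from slide, which it equals.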
